A study of Mus musculus with 12 samples.

Results

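The genes described here are 8 that serve the housekeeping work of Mueller glia: Glul, Slc1a3, Rlbp1, Kcnj10, Aqp4, Dkk3, Sox9 and Clu. They were taken by name, and all 8 were found among the 18509 genes above 0 in at least 1 library. The rule that picked them used no measured value, but it was set with earlier results of these data known. The libraries came from whole retinas of 6 p16-3MR mice aged 12 to 16 weeks, with 1 library per eye. In each mouse, saline infusion raised the IOP of one eye to 85 to 90 mm Hg and kept it there 60 min, while the fellow eye was left as control, and retinas were taken after 3 days. Mice 3, 4 and 6 received PBS and mice 1, 2 and 5 received ganciclovir (GCV) at 25 mg/kg once a day, so that there were 3 retinas in each of 4 groups: control, IOP-treated, GCV-treated control, and IOP- and GCV-treated. All mice, the controls included, carried the 3MR transgene, a fusion of Renilla luciferase, red fluorescent protein and herpes simplex thymidine kinase under the p16Ink4a regulatory region. GCV therefore acts on cells in which that region is active, whatever their type, and no group without the transgene was sequenced in these libraries.

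Mueller glia are the radial glia of the retina and span it from the vitreous to the photoreceptor layer. Slc1a3 (GLAST) takes glutamate up from the synaptic layers, and Glul, glutamine synthetase, turns it into glutamine that neurons use again. Kcnj10 (Kir4.1) carries potassium and Aqp4 carries water across the endfeet, and Rlbp1 (CRALBP) binds 11-cis retinoids. Sox9 is a transcription factor of Mueller glia, Dkk3 encodes a secreted protein enriched in them, and Clu encodes clusterin, a secreted chaperone. None of these genes is read from Mueller glia alone: Rlbp1 and Sox9 are also used by the pigment epithelium, Aqp4, Slc1a3 and Glul by astrocytes, and Clu by many cell types.

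Spans of the genes are given from RefSeq in GRCm38.p6, the build that mm10 stands for. Glul lies at chr1:153899929-153909723, Slc1a3 at chr15:8634124-8710807, Rlbp1 at chr7:79374865-79392250 and Kcnj10 at chr1:172341210-172374085. Dkk3 lies at chr7:112116019-112159482, Sox9 at chr11:112782210-112787757 and Clu at chr14:65968483-65981548. The values are sums over exons of a gene and do not separate transcripts. The first exon of Glul overlaps an exon of Teddm2 on the opposite strand, and Teddm2 itself lay between 0 and 0.294 FPKM (fragments per kilobase of exon, scaled to library size, the unit of the table) in the 12 libraries.

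The upstream sequences of Glul, Rlbp1 and Slc1a3 are shown because the first 2 were the genes that changed and the third, which works beside Glul in glutamate clearance, was the one whose level stayed nearest to its control. Each line gives the 250 bases before the annotated transcript start, 5′ to 3′ on the strand of the gene, from RefSeq GRCm38.p6. Capitals mark an E-box with the letters CANNTG, or the CCAAT box, or a TATA box spelled TATAAA, each searched on both strands. The windows are chr1:153899679-153899928 on the plus strand for Glul, chr7:79387028-79387277 on the minus strand for Rlbp1, and chr15:8710808-8711057 on the minus strand for Slc1a3. The Rlbp1 window precedes the start of one transcript and lies inside the span of the gene.
Glul: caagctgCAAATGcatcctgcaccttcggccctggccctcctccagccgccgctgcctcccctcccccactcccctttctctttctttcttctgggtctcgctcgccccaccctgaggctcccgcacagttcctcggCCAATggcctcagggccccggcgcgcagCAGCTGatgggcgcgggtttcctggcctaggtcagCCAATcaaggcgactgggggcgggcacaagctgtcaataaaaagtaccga
Rlbp1: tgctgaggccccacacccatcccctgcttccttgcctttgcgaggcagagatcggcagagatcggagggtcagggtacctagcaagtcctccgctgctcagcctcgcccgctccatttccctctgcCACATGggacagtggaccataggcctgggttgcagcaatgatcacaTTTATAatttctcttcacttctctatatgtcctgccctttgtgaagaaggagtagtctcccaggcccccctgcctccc
Slc1a3: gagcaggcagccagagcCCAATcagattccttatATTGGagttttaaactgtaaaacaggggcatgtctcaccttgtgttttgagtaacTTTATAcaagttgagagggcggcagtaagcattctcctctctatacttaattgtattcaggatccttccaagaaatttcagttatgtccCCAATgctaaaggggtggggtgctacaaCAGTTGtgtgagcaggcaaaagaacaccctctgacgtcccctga
The Glul window held E-boxes that begin 243 and 85 bases before the start and CCAAT boxes at 113 and 50. The Rlbp1 window held an E-box at 124 and a TATA box on the reverse strand at 78, and no CCAAT box. In Slc1a3 an E-box stood at 44, a TATA box on the reverse strand at 161, and CCAAT boxes at 233, 216 and 72. Of all 32851 windows of this length, 66.2% held an E-box, 33.8% a CCAAT box and 12.4% a TATA box. The letters TTCNNNGAA, bound by STAT factors, were present in 7.02% of windows and in Slc1a3 at 96, but not in the Glul or Rlbp1 window. The AP-1 letters TGANTCA were found in none of these 3 windows, against 6.75% of all windows. A match only says that the letters are present.

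limma was run on log2(FPKM + 1) with 1 mean per group, and a gene was called at a Benjamini-Hochberg adjusted p under 0.05 over the 18509 genes. Both eyes of a mouse share the animal, so each call was also checked in a fit with the mouse as a block. The libraries were estimated to hold 4020000 to 9060000 fragments, the fewest in the IOP-treated retina of mouse 6. Even Sox9, the lowest of the 8, then rested on at least 21.7 estimated fragments per kilobase in each library. The 12 rod markers summed to 38141 FPKM or more in each library, so that rod RNA was abundant throughout. Lens crystallin and lens fibre markers, summed over 13 genes, were 308, 6154 and 4856 FPKM in the IOP-treated retinas of mice 3, 4 and 6, 4070 to 7960 FPKM in the IOP- and GCV-treated retinas, and 9430 FPKM in the GCV-treated control retina of mouse 1 against 71.1 to 221 FPKM in the other 5 control retinas. In RNA from whole retina, fewer cells of a type and less RNA per cell cannot be told apart.

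Over all 6 mice, Glul and Rlbp1 were called lower after IOP elevation and the other 6 genes were not called. With the mouse as a block, which pairs both eyes, 1 of the 8 was called, Glul, and Rlbp1 was not (limma adjusted p = 0.0547). Of all genes tested 12.2% were called in this comparison, 6.76% higher and 5.44% lower, against 2 of these 8, both lower. Glul fell to 0.413 of its control level and Rlbp1 to 0.635, while Slc1a3 stood at 0.991. Sox9 and Clu were higher in the IOP-treated eye of each mouse, with unadjusted p = 0.0254 and 0.0209, but were not called. In all, 4 of the 8 had an unadjusted p under 0.05 by limma, as did 30.3% of all genes. With 3 mice per arm, none of the 8 genes was called in mice without GCV or in mice with GCV taken alone. In those comparisons 1.65% and 1.8% of all genes were called, and limma gave an unadjusted p under 0.05 for 2 of the 8 genes in each, against 18.9% and 19.2% of all genes.

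**Figure D1:**
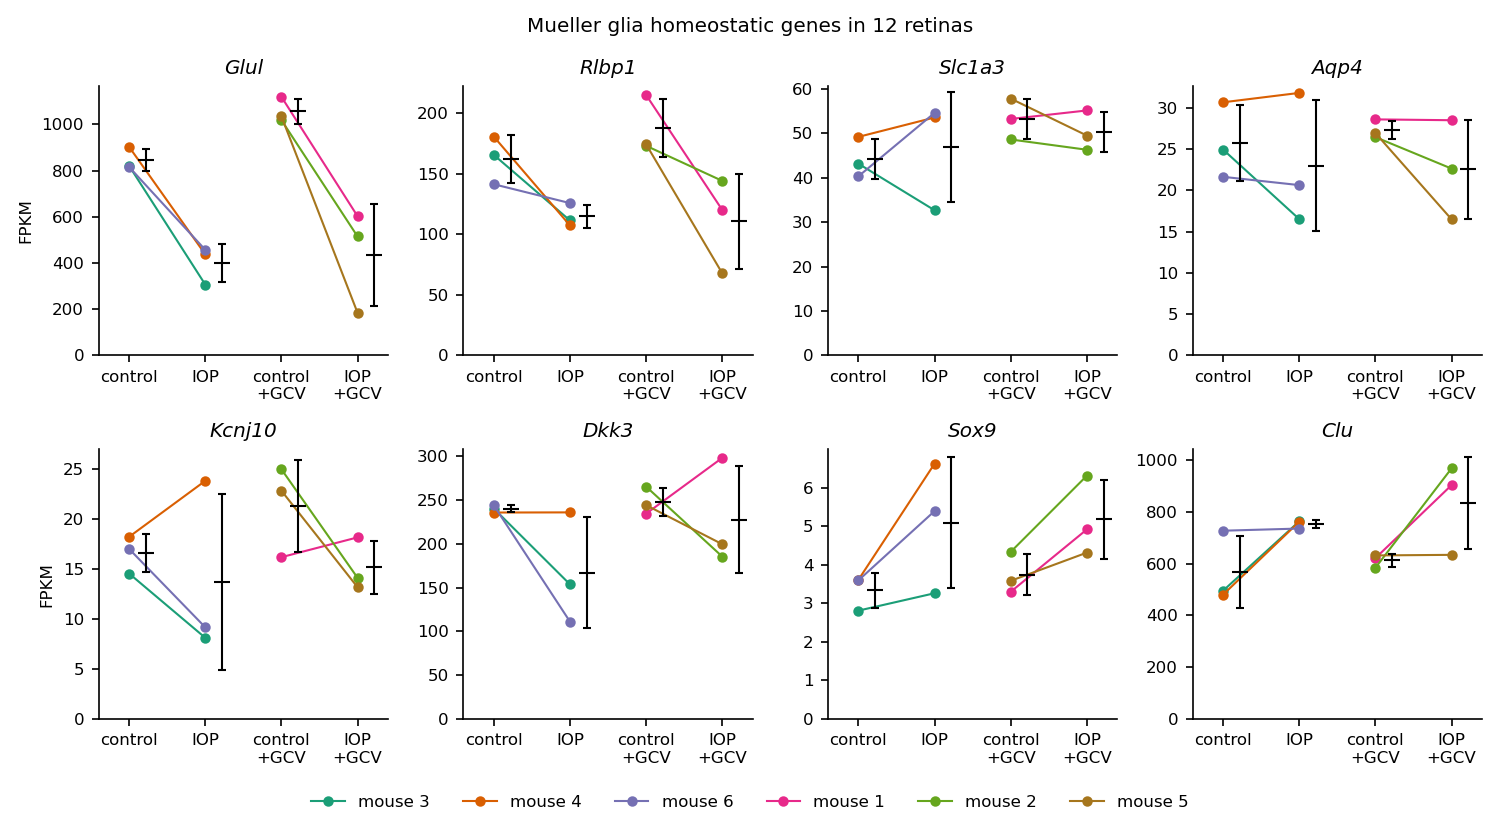
Level of each gene in FPKM (vertical axis, a separate scale for each gene) in the 4 groups. Each point is 1 retina, thin lines join both eyes of a mouse, and black marks give the mean ± SD (n = 3). All 6 IOP-treated retinas lie below all 6 control retinas for Glul, and the points of Slc1a3, Aqp4 and Sox9 overlap between groups.

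Glul was the most abundant of the 8 genes in control retinas. It lay at 820.2, 902 and 815 FPKM in the control retinas of mice 3, 4 and 6, and at 306, 437 and 457 FPKM in their IOP-treated retinas. In mice 1, 2 and 5, which received GCV, the control retinas held 1119, 1018 and 1035 FPKM and the IOP-treated retinas 602, 515 and 184 FPKM. Every IOP-treated retina was thus below every control retina, with or without GCV. Such a separation of all 6 from all 6 in this direction was met in 2.44% of all genes, and in 3.21% of those averaging 1 FPKM or more. The log2 fold change over all 6 mice was -1.28 (95% interval -1.87 to -0.68, limma adjusted p = 0.0174), and it was called with the mouse as a block as well (adjusted p = 0.0393), where 7.3% of all genes were called. Leaving out any 1 of the 12 libraries kept the call of Glul, with adjusted p between 0.00306 and 0.0496. In mice without GCV the log2 fold change was -1.10 (standard error 0.38, limma adjusted p = 0.192), and with GCV it was -1.45 (standard error 0.38, adjusted p = 0.087).

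Per mouse, Glul in the IOP-treated eye was 53.8%, 50.5%, 37.4%, 48.5%, 17.8% and 56.0% of the fellow eye in mice 1 to 6. Mouse 5 stood apart, with a log2 difference of -2.48 against -0.83 to -1.42 in the other 5. A lower value in the IOP-treated eye of all 6 mice was found in 10.1% of all genes. The control retinas differed little among themselves, with a coefficient of variation of 5.78% without and 5.12% with GCV, whereas the IOP-treated retinas varied by 20.4% and 50.8%. The same IOP-treated retina of mouse 5 held the highest sum of reactive glia markers, 2351 FPKM against 950.1 to 1081 FPKM in the other IOP-treated retinas, and the highest sum of infiltrating leukocyte markers, 2709 FPKM. Their part in the Glul value of that retina was not tested.

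Slc1a3, the glutamate transporter that feeds Glul, did not follow it. Control retinas of mice 3, 4 and 6 held 43.1, 49.2 and 40.3 FPKM, and IOP-treated ones 32.7, 53.6 and 54.6 FPKM. With GCV the values were 53.2, 48.6 and 57.8 FPKM in the control retinas of mice 1, 2 and 5, and 55.1, 46.3 and 49.5 FPKM in the IOP-treated retinas. The groups overlapped, 3 mice were lower and 3 higher in the IOP-treated eye, and the log2 fold change was -0.01 (95% interval -0.29 to 0.27, limma adjusted p = 0.958). Within a library, a ratio of both genes does not depend on how libraries are scaled. There were 17.9 to 21.0 FPKM of Glul for each FPKM of Slc1a3 in the 6 control retinas and 3.73 to 11.1 in the IOP-treated retinas, without overlap. In the difference between eyes, Glul was lower than Slc1a3 by 1.26 ± 0.51 on the log2 scale (mean ± SD, 6 mice), in 6 of 6 mice.

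Rlbp1, the retinoid-binding protein, was the other gene that fell. Its control values in mice 3, 4 and 6 were 166, 181 and 141 FPKM, and its IOP-treated values 112, 107 and 126 FPKM. Mice 1, 2 and 5, with GCV, had 215, 173 and 174 FPKM in control and 120.2, 144 and 67.9 FPKM in IOP-treated retinas. Over all 6 mice IOP-treated and control retinas overlapped, since the IOP-treated eye of mouse 2 lay above the control eye of mouse 6. The log2 fold change over all 6 mice was -0.65 (95% interval -1.02 to -0.28, limma adjusted p = 0.0345), with lower values in 6 of 6 mice. With the mouse as a block the adjusted p was 0.0547, so that Rlbp1 was no longer called, and leaving out each of the 12 libraries in turn called it 5 times (adjusted p from 0.0138 to 0.0869). The call was lost without any 1 of the 6 control retinas, or without the IOP-treated retina of mouse 3, fits in which 4.51% to 6.97% of all genes were called. Without and with GCV the log2 fold changes were -0.49 and -0.82 (limma adjusted p = 0.286 and 0.115). With the IOP-treated retina of mouse 2 left out, the comparison in GCV-treated mice called Rlbp1 at -1.04 (adjusted p = 0.0374).

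Because the pigment epithelium also makes Rlbp1, 12 markers of that layer were read beside it. None of the 12 was called with all libraries, and their summed level was 97.4 to 476 FPKM in control, 76.7 to 496 FPKM in IOP-treated, 39.4 to 314 FPKM in GCV-treated control and 76.2 to 139 FPKM in IOP- and GCV-treated retinas. In mice 3 and 5 the IOP-treated retina held 3.28 and 1.93 times the marker sum of the fellow eye, and its Rlbp1 was 67.3% and 38.9% of the fellow eye. In these mice the ciliary body, iris and cornea markers summed to 3.59 and 3.23 times the fellow eye. In the other 4 mice that ratio was 0.584 to 2.02. Dct alone, 1 of the 12, ranged from 9.42 to 158 FPKM in control and from 6.86 to 154 FPKM in IOP-treated retinas without GCV. Rpe65, a defining gene of the layer, went from a mean of 9.57 FPKM in control eyes to 3.02 FPKM after IOP elevation (log2 fold change -1.13, limma adjusted p = 0.227), and 1 library decided that call, since without the GCV-treated control retina of mouse 5 Rpe65 was called lower (-1.69, adjusted p = 0.0279). In the other 4 mice the pigment epithelium marker sum was lower in the IOP-treated eye, at 0.444 to 0.787 times the fellow eye. The part of the pigment epithelium in the Rlbp1 values was not tested in any mouse.

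Kcnj10 and Aqp4, which carry potassium and water at the endfeet, were not called. Kcnj10 had 14.5, 18.2 and 17.0 FPKM in control retinas of mice 3, 4 and 6, and 8.11, 23.8 and 9.16 FPKM after IOP elevation. In GCV-treated mice it had 16.2, 25.0 and 22.8 FPKM in control and 18.2, 14.1 and 13.2 FPKM in IOP-treated retinas. Both pairs of groups overlapped, and mice 1 and 4 were higher in the IOP-treated eye where the other 4 were lower. The log2 fold change of Kcnj10 over all 6 mice was -0.43 (95% interval -0.95 to 0.09, limma adjusted p = 0.245). The value moved with 1 library. Without the IOP-treated retina of mouse 4 it was -0.66 (adjusted p = 0.00702), in a fit that called 24.5% of all genes against 12.2%, and in the mice without GCV it moved from -0.41 to -0.87 (adjusted p = 0.023). That retina also kept its ganglion cell markers, whose sum was 0.949 of the fellow eye against 0.269 to 0.663 in the other 5 mice. How far the retina of mouse 4 differed in its injury was not tested.

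Aqp4 lay at 24.9, 30.7 and 21.6 FPKM in control and at 16.5, 31.8 and 20.6 FPKM in IOP-treated retinas of mice 3, 4 and 6. With GCV there were 28.6, 26.5 and 27.0 FPKM in control and 28.5, 22.6 and 16.5 FPKM in IOP-treated retinas of mice 1, 2 and 5. The ranges overlapped in both arms, with 5 of 6 mice lower in the IOP-treated eye. Its log2 fold change was -0.25 (95% interval -0.62 to 0.13, limma adjusted p = 0.372).

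Dkk3 was even in control retinas, at 240.4, 236 and 244 FPKM in mice 3, 4 and 6 and at 234, 265 and 244 FPKM in mice 1, 2 and 5 with GCV. IOP-treated retinas held 154, 236 and 111 FPKM without GCV and 298, 185 and 199.6 FPKM with GCV. The coefficient of variation was 1.72% in control and 38.0% in IOP-treated retinas without GCV, and 6.40% and 27.0% with GCV, and the groups overlapped in both arms. In mouse 4 both eyes were alike, and in mouse 1 the IOP-treated eye was higher, at 127% of its fellow. Dkk3 had a log2 fold change of -0.37 (95% interval -0.77 to 0.02, limma adjusted p = 0.191), which became -0.51 (adjusted p = 0.0249) without the IOP-treated retina of mouse 4. In the mice without GCV it was -0.59 (adjusted p = 0.245), and -0.87 (adjusted p = 0.0259) once that retina was left out.

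Sox9 and Clu stood on the other side. Sox9 had 2.81, 3.61 and 3.60 FPKM in control and 3.26, 6.63 and 5.40 FPKM in IOP-treated retinas of mice 3, 4 and 6. In mice 1, 2 and 5 the values were 3.30, 4.34 and 3.58 FPKM in control and 4.92, 6.32 and 4.32 FPKM in IOP-treated retinas. Each IOP-treated eye was above its fellow, but the groups overlapped. The log2 fold change of Sox9 was 0.42 (95% interval 0.06 to 0.77, limma adjusted p = 0.108), on a log2(FPKM + 1) scale that understates changes at so low a level. Without the IOP-treated retina of mouse 3 it was 0.53 (adjusted p = 0.0434).

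Clu was the second most abundant gene in control retinas, at 495, 480.1 and 727 FPKM in mice 3, 4 and 6 and at 621, 584 and 632 FPKM in mice 1, 2 and 5 with GCV. IOP-treated retinas held 764, 762 and 736 FPKM without GCV and 904, 968 and 634 FPKM with GCV. In each mouse the IOP-treated eye was higher, though mice 5 and 6 stood only at 100.4% and 101% of the fellow eye. Over all 6 mice the log2 fold change was 0.43 (95% interval 0.08 to 0.78, limma adjusted p = 0.0964). A higher value in all 6 mice, as in Sox9 and Clu, was seen in 10.7% of all genes.

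**Figure D2:**
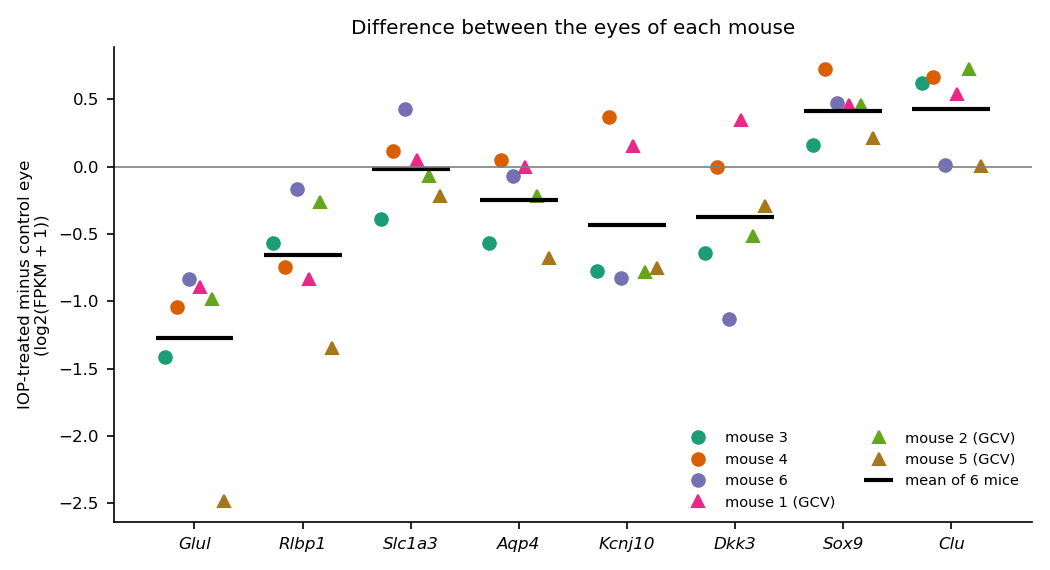
Difference between the IOP-treated and the control eye of each mouse in log2(FPKM + 1) (vertical axis) for each gene (horizontal axis). Circles are mice without GCV, triangles are mice with GCV, and bars mark the mean of 6 mice. All 6 points lie below 0 for Glul and Rlbp1 and above 0 for Sox9 and Clu, with the Glul value of mouse 5 at -2.48.

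The mice differed in how many of the 8 genes were lower in the IOP-treated eye: 6 in mice 2, 3 and 5, 5 in mouse 6, 3 in mouse 1 and 2 in mouse 4. In mouse 4 these were Glul and Rlbp1. The eyes also differed to a different extent over the genes averaging 1 FPKM or more. Their median absolute log2 difference was 0.165 in mouse 4 and 0.499 in mouse 6, the extremes of the 6 mice. The IOP-treated library of mouse 6 was also the one with the fewest estimated fragments. Glul, singled out here because it fell the most of the 8, was lower relative to its fellow eye than each of the other genes on average, and these gaps are given as a description. The mean log2 gap to Rlbp1 was -0.62 ± 0.39 (SD, n = 6), to Kcnj10 -0.84 ± 0.68, to Dkk3 -0.90 ± 0.83 and to Aqp4 -1.03 ± 0.40.

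**Figure D3:**
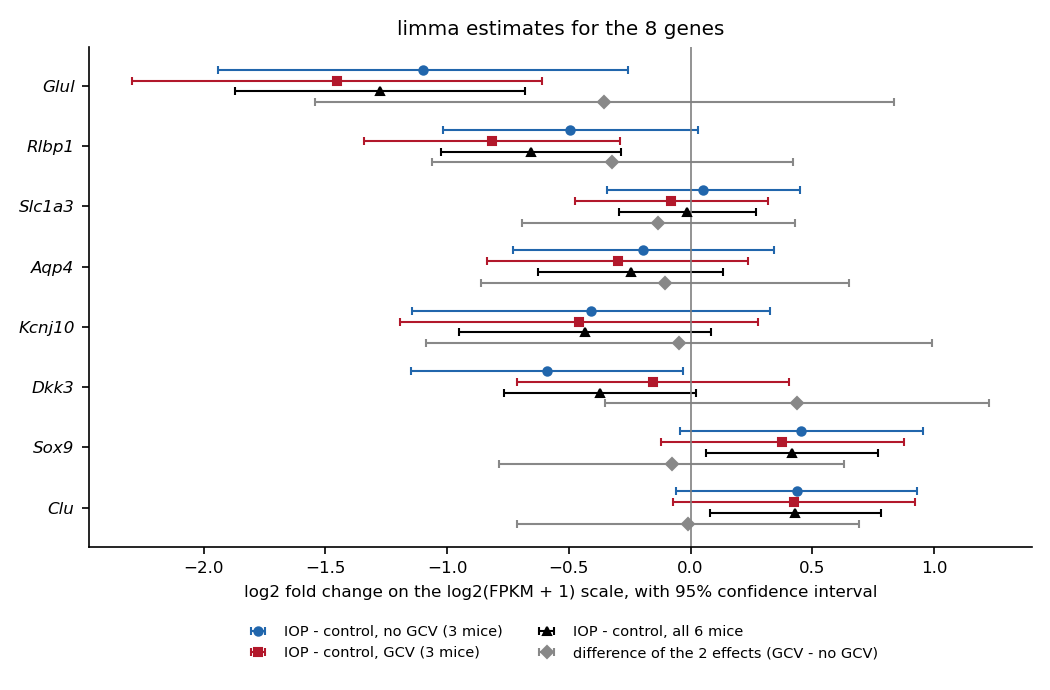
Log2 fold changes of the 8 genes from limma (horizontal axis) with 95% intervals for the IOP comparison without GCV, with GCV, over all 6 mice, and for the difference between both arms. Over all 6 mice the intervals of Glul and Rlbp1 lie below 0, and the intervals of the difference include 0 for each gene.

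No call was made for GCV. The difference of the IOP effect with and without GCV was called for 0 of 8, as for 0% of all genes, and neither control nor IOP-treated retinas gave a call when GCV-treated mice were set against PBS-treated mice (0% of all genes in each). At an unadjusted p under 0.05 limma listed none of the 8 in these 3 comparisons. Of all genes it listed 358 (1.93%) for the difference of the IOP effect. It listed 774 (4.18%) for GCV in IOP-treated retinas and 295 (1.59%) for GCV in control retinas. For Glul the difference was -0.35 with an interval from -1.54 to 0.84, so a sizeable difference in either direction was not detectable with 3 mice per arm. For Rlbp1 the difference was -0.32 (-1.06 to 0.42), for Slc1a3 -0.13 (-0.69 to 0.43), and for Dkk3 0.44 (-0.35 to 1.23). Glul in control retinas averaged 846 ± 48.9 FPKM in PBS-treated mice and 1057 ± 54.1 FPKM in GCV-treated mice (SD, n = 3). Between these control retinas the log2 difference was 0.32 (-0.52 to 1.16, limma unadjusted p = 0.415) and was not called.

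Since FPKM are per length, levels can be set in order. In both control groups the order was Glul, Clu, Dkk3, Rlbp1, Slc1a3, Aqp4, Kcnj10 and Sox9, and no neighbours overlapped in their 3 retinas. In both IOP-treated groups Clu stood first and Glul second, and the rest kept their places. Without GCV, Clu at 754 ± 15.8 FPKM was above Glul at 400.2 ± 81.7 FPKM after IOP elevation (SD, n = 3). With GCV the means were 835 ± 177 and 434 ± 220 FPKM, again with no overlap between Clu and Glul. After IOP elevation without GCV the ranges of Dkk3 and Rlbp1 overlapped, as did those of Aqp4 and Kcnj10, and with GCV those of Glul and Dkk3 and of Aqp4 and Kcnj10.

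Likeness was measured as the mean absolute gap between centred log2 values over the 12 libraries, among 9280 other genes averaging 5 FPKM or more. For Glul the nearest were Crabp1 (gap 0.20), a retinoic acid binding protein, Tspyl4 (0.20) and Hlf (0.21), a PAR bZIP transcription factor. The nearest to Rlbp1 were Cplx3 (0.12), a complexin of ribbon synapses, 1810010H24Rik (0.12) and Pnpla3 (0.14). Kcnj10 was nearest to Cntn1 (0.07), Tvp23a (0.09) and B4galt6 (0.10), and Aqp4 to Syt9 (0.08), Neo1 (0.10) and Trim9 (0.11). For Dkk3 they were Tspan9, Nisch and Snn, for Slc1a3 Acvr1, Cenpc1 and Usp45, for Sox9 Nfix, Snrnp70 and Tubb2b, and for Clu Trip6, Ankzf1 and Slc41a1. Among the 8 genes themselves the closest were Slc1a3 and Aqp4 (0.18) and Sox9 and Clu (0.21), and the furthest apart Glul and Clu (0.85). Glul and Rlbp1, the genes that fell, were 0.34 apart. These gaps describe 12 libraries that share mice and treatment.

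The wider pathways were read from 6 lists of further Mueller glia genes by role, 65 genes in all. Over all 6 mice 9 were called higher and 5 lower, or 13.8% and 7.69%, where 6.76% and 5.44% of all genes were, and the median log2 fold change was 0.00 against 0.01 over all genes. In the mice without GCV 4 were called higher and 0 lower, where 1.42% and 0.232% of all genes were, and with GCV 3 higher and 1 lower, where 1.65% and 0.157% of all genes were.

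Around Glul and Slc1a3, none of 11 further genes of glutamate, glutamine and GABA handling was called. By limma 3 of the 11 had an unadjusted p under 0.05, as did 30.3% of all genes. Among the 3 were the GABA transporter Slc6a11 and the GABA transaminase Abat, with log2 fold changes of -0.89 and -0.80. Slc38a3, a glutamine exporter and the most abundant of them, averaged 252 FPKM in control eyes and 253 FPKM after IOP elevation. Slc1a2, another glutamate transporter, had a log2 fold change of 0.21 (limma adjusted p = 0.19). When the IOP-treated eye of mouse 4 was left out, 3 of the 11 were called lower, Slc6a11 and Abat among them, and Slc1a2 higher, in a fit that called 24.5% of all genes. Without the IOP-treated eye of mouse 1 Abat was called lower, and without that of mouse 2 the cystine transporter Slc7a11 was called higher, where 11.8% and 10.8% of all genes were called. Up to 2 of the list were called lower under another pseudocount or filter, and 0 with the mouse as a block. GABA transport and breakdown are also carried by amacrine cells.

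Beside Kcnj10 and Aqp4, none of 11 genes for potassium, water and the dystrophin complex that anchors both channels was called, although 8 were lower and the median was -0.33. By limma 5 of the 11 had an unadjusted p under 0.05, as did 30.3% of all genes. These were Aqp1, Aqp11, Kcnj2, Kcnk2 and Dmd, with log2 fold changes of -0.33 to -0.71. Aqp1, a water channel, averaged 85.7 and 63.6 FPKM (log2 fold change -0.45, limma adjusted p = 0.0593). Dag1, an anchoring protein, had a log2 fold change of 0.02 (limma adjusted p = 0.908). With the IOP-treated eye of mouse 4 left out, the potassium channels Kcnj2 and Kcnk2 were called lower, which is 2 of 11 where 24.5% of all genes were called. With another library dropped, 1 gene was called lower in 3 fits: Aqp1 without the IOP-treated eye of mouse 3 (6.97% of all genes called), Dmd without that of mouse 6 (10.2%) and Aqp11 without that of mouse 2 (10.8%). Aqp1 was also called under the 1 FPKM filter, and Aqp1 and Kcnk2 under quantile normalization, which called 19.7% and 16.0% of all genes.

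Beside Rlbp1, 1 of 7 further retinoid genes was called lower. Crabp1 fell from 18.7 to 8.18 FPKM (-1.17, limma adjusted p = 0.0243), with the mouse as a block its adjusted p was 0.0537, and dropping each library in turn kept the call 6 times of 12. Crabp1 is also made by amacrine cells. Degs1 and Rdh11 had log2 fold changes of -0.15 and -0.32 and were not called.

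Genes of acid-base, energy and lipid support were called in 4 of 12. Car2, the carbonic anhydrase of Mueller glia, fell from 327 to 233 FPKM (log2 fold change -0.50, limma adjusted p = 0.0161), and the lactate transporter Slc16a1 from 54.7 to 41.6 FPKM (-0.38, adjusted p = 0.0375). Apoe, the lipid carrier, rose from 615 to 1227 FPKM (0.96, adjusted p = 0.0303), and Abca1, which loads it, from 5.37 to 11.6 FPKM (0.95, adjusted p = 0.0153). With the mouse as a block Slc16a1 and Apoe were not called (adjusted p = 0.0839 and 0.058), while Gpx3, a secreted glutathione peroxidase, was called higher (1.58, adjusted p = 0.0266). Dropping each library in turn kept the call of Abca1 12 times of 12, of Car2 11, of Slc16a1 5 and of Apoe 4. Apoe and Abca1 are also made by microglia and macrophages. Ldha, the most abundant of the list in control eyes, averaged 618 and 679 FPKM and was not called.

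Among 12 transcription factors of Mueller glia, 1 was called higher and 2 lower. Hes5, a Notch target, fell from 3.85 to 1.50 FPKM (log2 fold change -0.92, limma adjusted p = 0.00805), and Pax6, which amacrine and ganglion cells also use, from 105 to 67.1 FPKM (-0.68, adjusted p = 0.0361). Id1 rose from 4.81 to 7.80 FPKM (0.61, adjusted p = 0.0122). Dropping each library in turn kept the calls of Hes5 and Id1 12 times of 12, and that of Pax6 4 times. Rax averaged 56.5 and 63.0 FPKM and Id3 16.1 and 23.9 FPKM, neither called, and Sox2 and Sox8 had log2 fold changes of -0.04 and 0.01.

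Of 12 other markers of Mueller glia, 5 were called higher and none lower. Abca8a, a lipid transporter, lay at the threshold at 27.6 and 14.9 FPKM (log2 fold change -0.95, limma adjusted p = 0.0506), was lower in 6 of 6 mice, and was called lower under 6 of the 18 alternatives. Crym, which binds thyroid hormone, rose from 24.3 to 129 FPKM (log2 fold change 2.32, limma adjusted p = 0.000157) and was called in both arms. Vim, an intermediate filament, rose from 78.7 to 237 FPKM (1.51, adjusted p = 0.00222), Pdpn from 45.0 to 105 FPKM (1.20, adjusted p = 0.00129) and Cd9 from 53.3 to 103 FPKM (0.92, adjusted p = 0.00311). S100a16 rose from 49.9 to 88.4 FPKM (0.79, adjusted p = 0.00865). Mfge8 and Gnai2, also abundant, averaged 223 and 249 FPKM and 114 and 141 FPKM, and were not called. The markers that rose were higher in 6 of 6 mice, in the same retinas in which Glul was lower.

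**Figure D4:**
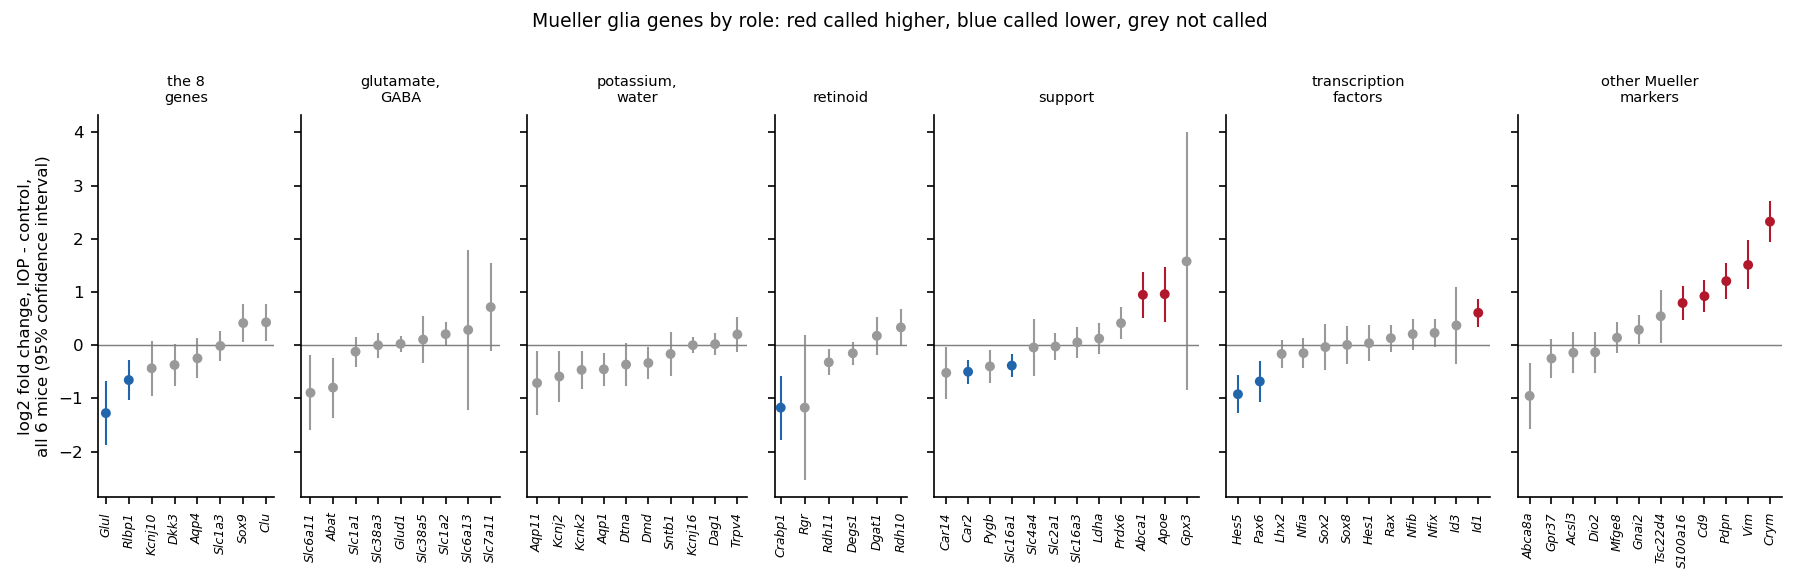
Log2 fold change over all 6 mice (vertical axis, limma, 95% interval) for the 8 genes and for genes from 6 lists of further Mueller glia genes by role. Red marks genes called higher, blue genes called lower and grey genes not called. Glul and Rlbp1 are blue, none of the glutamate or of the potassium and water genes is coloured, and Crym lies highest.

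Reactive glia markers were called higher in 17 of 18, at a median of 2.42 on the log2 scale, and 15 of them were called with the mouse as a block. Gfap rose from 17.7 to 115 FPKM (log2 fold change 2.66, limma adjusted p = 0.00135) and Lcn2 from 16.4 to 259 FPKM (3.63, adjusted p = 0.000959). Their summed level was 174 to 324 FPKM in the 6 control retinas and 950.1 to 2351 FPKM in the 6 IOP-treated retinas. Astrocyte markers were divided, with 2 called higher and 2 lower of 9. S100b and Aldoc, which Mueller glia also make, fell by 0.94 and 0.60 on the log2 scale (limma adjusted p = 0.0174 and 0.046, and 0.0511 and 0.0591 with the mouse as a block), while Aldh1l1 and Gfap rose. With the block Gja1, a gap junction protein, was called higher too (adjusted p = 0.0242).

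Markers of other retinal cells moved in the same retinas. Ganglion cell markers were called lower in 10 of 12 (median -1.23), in 4 with the mouse as a block, and in 2 to 12 when 1 library was left out, the most when the IOP-treated eye of mouse 4 was dropped. Over all genes 12.2% were called with all libraries, 7.3% with the block and 4.51% to 24.5% when 1 library was left out, the most again without that eye. Thy1 fell from 250.1 to 107 FPKM (limma adjusted p = 0.0366). Bipolar and amacrine markers were called lower in 4 of 14 (median -0.72), the amacrine genes Gad1, Gad2, Slc6a9 and Tfap2a, with 1 to 8 called when 1 library was left out. Rod markers were called in 0 of 12 by limma, with 1, Nrl, at an unadjusted p under 0.05 and a median of -0.24. Nrl was called lower under the 1 FPKM filter and quantile normalization, and Sag higher without the variance trend. Microglia markers were called higher in 10 of 12 (median 2.27) and infiltrating leukocyte markers in 10 of 12 (median 2.82). C1qa rose from 16.8 to 102 FPKM (limma adjusted p = 0.000173) and Lyz2 from 15.3 to 695 FPKM (adjusted p = 0.00139). Lens markers were called higher in 6 of 13, and in 0 to 10 when 1 library was left out, while pigment epithelium, blood, endothelial and ciliary body, iris and cornea markers were called in none with all libraries and no block. Beside Rpe65, the alternatives called Flt1, an endothelial receptor, lower when the IOP-treated eye of mouse 4 was dropped, and Mfap4, of the ciliary body, iris and cornea list, higher with the mouse as a block. FPKM are shares of a library, and the part of these other cells in the lower Glul and Rlbp1 values was not tested.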

How the data were processed

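Total RNA from 12 mouse retinas had been made into stranded mRNA libraries (TruSeq) and sequenced as paired ends. The authors state that reads were counted with HOMER on exons of RefSeq genes, and their processing notes name TopHat2, Bowtie2, Cufflinks, Cuffdiff and mm10 without a role. The deposited table holds 24340 genes in 12 columns. Its unit is not stated and was taken as FPKM, as deposited by the authors, because low values of a gene times its length are multiples of 1 number within a library. Sums were 394758 to 529896 FPKM, 5831 genes were at 0 throughout, and whether counting used strand is not stated.

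Depth was inferred from the smallest values of 1628 genes that have 1 transcript of 1500 bases or more (less 170 bases), of which 80.7% to 85.0% lay within 0.15 of a whole number of fragments, so depth is an estimate and no counting interval is given. Groups came from the labels, and n counts retinas. limma 3.58.1 in R 4.3.3 was run on log2(FPKM + 1) of 18509 genes with 4 group means and the variance trend, all 12 libraries sharing 1 spread (8 residual degrees of freedom), and Benjamini-Hochberg adjustment at 0.05. Fold changes on this scale understate changes of low genes. The calling was tested on simulated data. The numbers pair retinas of 1 mouse by the labels, and deviations from the group means correlated at -0.117, 0.132, 0.207, 0.388, 0.166 and 0.0998 in mice 1 to 6. Also tried were 0.1 as pseudocount, only genes reaching 1 FPKM in 3 libraries, the mouse as a block, median-ratio scaling, quantile normalization, no variance trend, only the groups compared, an adjusted p under 0.1, and each library left out. Figures used Python 3.11.15 and matplotlib 3.10.9.

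The 8 genes, the lists and the rules were chosen with earlier results of these data known. Named were all 8 genes, the 3 most abundant and up to 5 called genes of each pathway list, the leading genes of the other lists, and the 3 genes most like each of the 8. Sox2, Sox8, Rpe65, Teddm2, Abca8a, Gpx3, Gja1, Slc7a11, Flt1, Mfap4, Sag and genes behind counts of 5 or fewer were named after their values were seen. Sequences are from RefSeq GRCm38.p6, which had windows for 4 of the 8 genes (also Kcnj10). Some results are withheld and not reported here.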

Additional observations from a re-analysis of the deposited data

Results flagged for a closer look

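Glul in mouse 5, which received GCV, had a log2 difference between the IOP-treated and the control eye of -2.48, the lowest of 6 mice, and the gap to the next mouse (-1.42) was large for the range of all 6 by Dixon's test. About 1 in 20 such groups would be picked out by chance.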

How the results depend on the processing

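Glul kept its call over all 6 mice under every alternative run, and Rlbp1 kept its own except with the mouse as a block and without any of the 7 libraries named in the report. With the mouse as a block, the pairing left 1 of the 8 genes called over all 6 mice in place of 2, and changed no other call of the 8. At an adjusted p under 0.1, Glul was called lower with GCV (limma adjusted p = 0.087). Clu was then called higher over all 6 mice (limma adjusted p = 0.0964). With each library left out in turn, 0 to 2 of the 8 were called without GCV, 0 to 1 with GCV and 1 to 4 over all 6 mice, the 2 and the 4 both when the IOP-treated eye of mouse 4 was dropped, where calls over all genes rose to 24.5% from 12.2% over all 6 mice, and the cause was not tested. Of the 48 log2 fold changes of the 8 genes, 15 turned sign under at least 1 alternative, none of them called, and the difference between arms of Glul, at -0.35, was the furthest from 0 among these. Quantile normalization gave -0.0122 for Slc1a3 without GCV, 0.00907 for Clu in the difference between arms, and 0.0136 for Glul and -0.0253 for Sox9 for GCV in IOP-treated retinas. Over the fits that left out 1 library, Slc1a3 ranged from -0.0727 to 0.289 and Aqp4 from -0.445 to 0.00803 without GCV, and Slc1a3 from -0.0762 to 0.105 over all 6 mice. In the difference between arms Glul ranged from -0.68 to 0.18, Aqp4 from -0.31 to 0.15, Kcnj10 from -0.32 to 0.41, Sox9 from -0.32 to 0.10 and Clu from -0.20 to 0.18. For GCV in IOP-treated retinas the ranges were -0.35 to 0.50 for Glul, -0.34 to 0.20 for Rlbp1, -0.11 to 0.26 for Slc1a3, -0.21 to 0.24 for Aqp4 and -0.19 to 0.23 for Sox9. For GCV in control retinas they were -0.0175 to 0.225 for Aqp4 and -0.00447 to 0.0849 for Dkk3. Depth is an estimate, and with 3 retinas per group differences within the GCV intervals were not detectable.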
